A study of Mus musculus with 12 samples.

Results

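The LPS response of Lyz2-Cre-Hdac3f/f bone marrow-derived macrophages was described over all genes, from 6 of the 12 RNA sequencing libraries of the series. Of 54532 genes in the count table, 14286 had enough counts to be tested. The 6 libraries were chosen by their labels, 3 of untreated cells and 3 of cells given 500 ng/ml lipopolysaccharide (LPS) for 4 h. In these mice Cre recombinase is made from the Lyz2 locus, the lysozyme gene of myeloid cells, and acts on Hdac3 genes flanked by loxP sites. The untreated libraries carry the same floxed gene and the same Cre by the labels. The other 6 libraries come from Hdac3f/f cells without Cre, 3 untreated and 3 with the same LPS treatment. They enter the same model, so they also bear on the filter, the scaling and the estimate of spread, and they are used below to test where the response differed between genotypes. All donors were 8 weeks old, and marrow cells were grown in DMEM with 10% serum, 1% penicillin and streptomycin and 10 ng/ml M-CSF, the growth factor that turns marrow precursors into macrophages. The labels do not say whether the 3 libraries of a group came from separate mice, so each p-value measures the spread between these libraries, which may be technical.

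LPS, a component of the outer membrane of Gram-negative bacteria, is passed by CD14 to the receptor complex of TLR4 and MD-2. One arm of the signal runs through MyD88, IRAK and TRAF6 to NF-kB and the MAP kinases, and the other through TRIF to IRF3, interferon beta and then the factors that interferon activates. HDAC3 is the deacetylase of the NCoR corepressor complexes, which sit at many of the genes that these factors turn on.

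Levels below are CPM, a gene's counts divided by the TMM-scaled library size, and a log2 fold change compares LPS with untreated Lyz2-Cre-Hdac3f/f cells (Lyz2-Cre cells below) with its standard error (SE), n = 3 libraries per group. A ± value is the SD of 3 libraries after a level and the SE after a log2 fold change or interaction. A gene is said to have risen or fallen when its adjusted p was under 0.05 (edgeR quasi-likelihood test, Benjamini-Hochberg over all 14286 tested genes). Library totals ran from 16553432 to 18706990 counts. The macrophage markers Adgre1 (1757 to 3413 CPM) and Csf1r (2114 to 2446 CPM) were high in all 6 libraries.

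One untreated library stood apart. On the second principal component of the 6 libraries, untreated replicate 1 lay at 43.6 and the other 5 between -25.5 and 9.3. Lyz2 itself was at 31.0 CPM in that library, against 5181 and 5637 CPM in the other untreated libraries and 6090, 6250 and 7728 CPM with LPS. The same library held 4.66 CPM of Sparc, a matrix protein of stromal cells, against 67.5 and 45.3 CPM in the other untreated libraries. It held 128 CPM of Ppbp, a platelet chemokine, against 32.6 and 30.6 CPM (Sparc and Ppbp were picked after their values were seen). Neither was called with all 6 libraries, while without this one Ppbp rose by 1.46 and Sparc fell by 2.07. Without this library 3417 genes rose and 3618 fell, where all 6 libraries gave 3606 and 3958. Without untreated replicate 2 the counts were 3203 and 3380, and without untreated replicate 3 they were 3273 and 3490. Leaving out any library also leaves fewer replicates, so these counts do not measure the part of replicate 1 in the results. Of the calls made with all 6 libraries, 3274 rises and 3435 falls were also made without untreated replicate 1.

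Hdac3 (mm10 chromosome 18, 37935844 to 37954988) was at 34.9 ± 1.75 CPM (SD, n = 3) untreated and 37.1 ± 2.37 CPM (SD, n = 3) with LPS, a log2 fold change of 0.085 ± 0.09 (adjusted p = 0.467). With library totals as the scale it was -0.30 (adjusted p = 0.0156). The count covers the whole gene, including the floxed exons, so recombination cannot be read from it.

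Of the tested genes, 25.2% rose and 27.7% fell, together 52.9%. List counts below are to be read beside these shares, and a list near them does not stand out from all tested genes. More than 4-fold changes were found for 693 rising and 745 falling genes, more than 8-fold changes for 328 and 247, and more than 16-fold changes for 184 and 88. Falls were more numerous at 4-fold and rises from 8-fold on. Genes that rose over 4-fold made up 2.38% to 2.48% of all counts in the untreated libraries and 14.6% to 14.7% with LPS. Genes that fell over 4-fold made up 2.76% to 2.91% untreated and 0.346% to 0.353% with LPS. These shares describe genes picked by the same contrast. The median log2 fold change of all tested genes was -0.08 on the TMM scale and -0.46 when library totals alone set the scale. All changes are therefore relative to the TMM scale, and counts with library totals are given below for the lists they moved most. In bulk RNA, fewer cells of a type and less RNA per cell cannot be told apart.

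**Figure D1:**
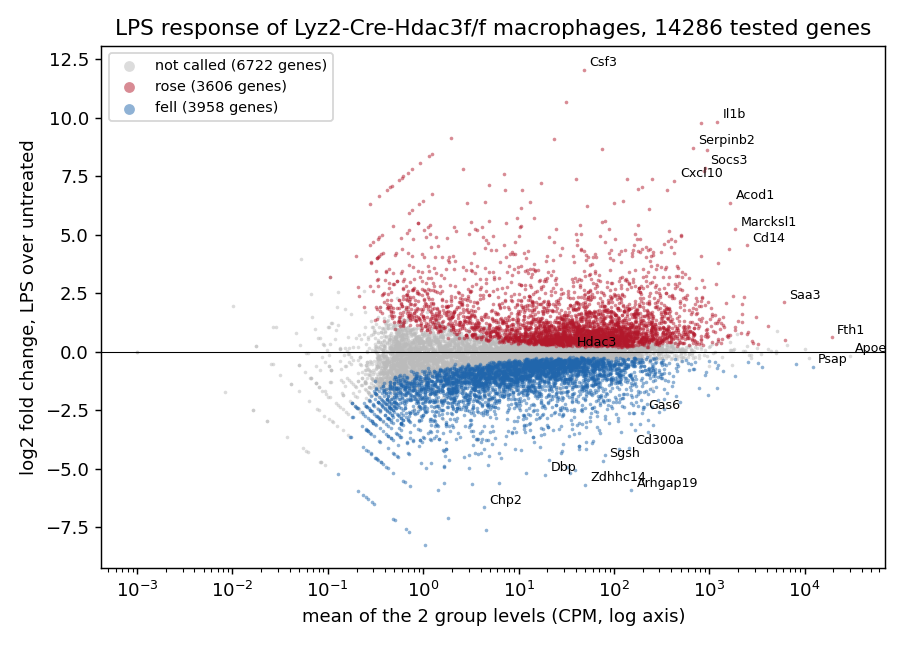
Each point is 1 of the 14286 tested genes, with the mean of the untreated and LPS levels (CPM, log axis) on the x axis and the log2 fold change of Lyz2-Cre cells on the y axis. Red points rose (3606), blue points fell (3958) and grey points were not called (6722). The highest point is Csf3, at 12.07.

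To show sequence before the values, the upstream part of 5 RefSeq promoters (GRCm38.p6, the build mm10) was searched for short motifs in the 250 bases before the transcription start, on both strands. The motifs included a kB site, GGNNNTTCC, the site type bound by NF-kB, and a core of the interferon-stimulated response element, GAAANNGAA. The AP-1 site TGANTCA and the TATA box TATAAA were searched as well. So were the CRE motif TGACGTCA (not the Cre recombinase), the E-box CACGTG and the D-box TTATGNAA. Nfkbia, Cxcl10, Acod1 and Gbp5 stand for genes that rose over 16-fold with kB or interferon motifs, and Serpinb2 for a gene with a stronger response in this genotype and no kB match. Capitals mark matches on either strand of the motifs named for each gene, which are a description of letters and not of binding. Left in lower case are an interferon core match in Nfkbia, 53 to 45 bases before the start, and an AP-1 match in Cxcl10, 74 to 68 bases before it. A D-box match in Gbp5, 118 to 111 bases before the start, is in lower case too. Nfkbia (chr12:55492648-55492897, minus strand, kB sites in capitals), Cxcl10 (chr5:92348890-92349139, minus strand, kB and interferon core in capitals), Acod1 (chr14:103046762-103047011, plus strand, kB and TATA box in capitals), Gbp5 (chr3:142496684-142496933, plus strand, kB and interferon core in capitals) and Serpinb2 (chr1:107511173-107511422, plus strand, the first of 2 listed starts, AP-1 and TATA box in capitals) read 5′ to 3′:
Nfkbia: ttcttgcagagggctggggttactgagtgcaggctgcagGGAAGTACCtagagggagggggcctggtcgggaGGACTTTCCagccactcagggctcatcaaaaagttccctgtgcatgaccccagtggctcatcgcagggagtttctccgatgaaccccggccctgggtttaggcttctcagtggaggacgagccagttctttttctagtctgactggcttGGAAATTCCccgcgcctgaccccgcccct
Cxcl10: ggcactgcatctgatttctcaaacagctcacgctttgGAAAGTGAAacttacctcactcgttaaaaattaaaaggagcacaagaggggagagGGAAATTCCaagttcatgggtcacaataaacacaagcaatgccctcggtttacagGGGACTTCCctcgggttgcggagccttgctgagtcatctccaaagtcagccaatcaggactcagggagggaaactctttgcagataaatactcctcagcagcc
Acod1: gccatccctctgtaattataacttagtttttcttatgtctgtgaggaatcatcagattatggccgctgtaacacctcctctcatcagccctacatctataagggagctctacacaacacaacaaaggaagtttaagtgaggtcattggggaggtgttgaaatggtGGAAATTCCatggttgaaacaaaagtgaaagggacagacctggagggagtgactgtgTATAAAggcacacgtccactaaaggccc
Gbp5: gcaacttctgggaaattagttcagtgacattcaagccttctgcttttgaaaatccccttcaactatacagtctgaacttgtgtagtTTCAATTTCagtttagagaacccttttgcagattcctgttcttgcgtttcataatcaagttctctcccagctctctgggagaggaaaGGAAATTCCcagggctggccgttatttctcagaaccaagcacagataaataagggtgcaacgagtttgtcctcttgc
Serpinb2: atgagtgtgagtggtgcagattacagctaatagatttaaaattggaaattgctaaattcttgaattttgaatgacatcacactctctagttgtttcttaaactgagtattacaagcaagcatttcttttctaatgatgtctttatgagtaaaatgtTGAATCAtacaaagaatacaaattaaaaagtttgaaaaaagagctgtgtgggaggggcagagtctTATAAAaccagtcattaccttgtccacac
The Nfkbia window held 3 kB matches and the Cxcl10 window 2, while Acod1 and Gbp5 held 1 each.

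Of 14286 tested genes, 10208 had a symbol with a promoter entry, and some have several. The kB motif was in 15.7% of all 32851 windows and in 17.8% of the 5660 windows of tested genes that were not called. Its share was 20% for genes that rose, 21.1% for those that rose over 4-fold and 27.2% (44 of 162 windows) for those that rose over 16-fold. Windows of genes that fell over 4-fold had it in 13.9% (92 of 662). The interferon core was in 7.13% of all windows, 6.38% of not called, 10.3% of genes that rose over 4-fold, 11.1% of those that rose over 16-fold and 3.78% of those that fell over 4-fold. The AP-1 motif was in 4.45% of windows of genes not called, 11.7% of genes that rose over 16-fold and 6.65% of genes that fell over 4-fold. TATA boxes were in 6.50%, 16% and 8.31% of the same 3 sets, where all windows gave 12.4%. The E-box went the other way among rises, with 8.2%, 4.94% and 8.46% of those sets. The CRE motif was in 2.35%, 1.85% and 2.11% of them, and the D-box in 2.08%, 3.7% and 1.21%. Windows of 1 gene can overlap, and no test was made.

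Cd14 (chromosome 18, 36725074 to 36726736), the carrier that hands LPS to the receptor, was at 280.1, 136 and 186 CPM untreated and 4610, 4729 and 4835 CPM with LPS, a log2 fold change of 4.56 ± 0.24 (adjusted p = 6.5e-09). The treated libraries lay close together, and all were above every untreated one. Tlr4 was at 74.0 CPM untreated and 62.0 CPM with LPS and was not called, except with library totals (-0.64) and with the 6 Lyz2-Cre libraries fitted alone (-0.26). Of 26 genes for LPS sensing and signalling, 18 rose, 1 fell and 7 were not called, with a median log2 fold change of 0.67, against 25.2% and 27.7% of all tested genes. Rising members included Irak2 (2.38) and the brake of the receptor complex Irak3 (2.81), a kinase-like protein that slows signalling at the receptor. Ticam2, the TRAM adaptor of the TRIF arm, rose by 2.38 and the ubiquitin ligase gene Peli1 by 1.77. Tab1, an adaptor of the kinase TAK1, fell (-0.97 ± 0.12). With library totals as the scale, 11 of the 26 rose and 3 fell, and with the 6 Lyz2-Cre libraries fitted alone 2 fell.

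Other pattern receptors changed in both directions. Of 23 tested, 14 rose and 5 fell. Tlr2, the receptor for bacterial lipopeptides, rose from 54.8 ± 7.92 to 426 ± 19.1 CPM (2.96 ± 0.14), and the cytosolic muramyl dipeptide sensor Nod2 (2.58) and its kinase Ripk2 (2.46) rose too. Nlrp3, the inflammasome sensor, was at 28.4, 22.6 and 29.4 CPM untreated and 780.4, 780.4 and 719.6 CPM with LPS. Among nucleic acid sensors of the endosome, Tlr9, which senses unmethylated CpG DNA, was at 292, 264 and 282 CPM untreated and 44.3, 69.7 and 77.0 CPM with LPS (-2.13 ± 0.22, adjusted p = 3.99e-06). Tlr13, the sensor of bacterial ribosomal RNA in mice, fell by 1.13 on the log2 scale, and Mavs, the adaptor of cytosolic RNA sensing, by 1.23.

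Each of the 11 tested NF-kB and IkB genes rose, and their median was 2.72 on the log2 scale. Nfkbia, the first inhibitor made in response to NF-kB itself, was at 31.6, 30.3 and 39.7 CPM untreated and 697, 777 and 807 CPM with LPS (4.49 ± 0.14). Nfkbiz, a nuclear IkB needed for secondary response genes, rose by 4.83 and Nfkbie by 3.86. The subunit genes rose less, with Nfkb2 at 3.56, Nfkb1 at 2.72, Relb at 2.67, Rela at 1.59 and Rel at 1.42. Bcl3 (2.99), Nfkbib (2.69) and Nfkbid (1.04) complete the family.

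Genes that restrain MAP kinases and cytokine signalling were among the rises. Of 12 tested MAP kinase phosphatases 7 rose and 4 fell. Dusp16, which acts on JNK and p38, rose most, from 5.91 to 155 CPM (4.71 ± 0.20), followed by Dusp2 (4.33), Dusp1 (3.19), Dusp4 (2.35), Dusp5 (1.89) and Dusp6 (1.42). Dusp3 (-1.11), Dusp22 (-1.03) and Dusp19 (-0.76) fell. Socs3, the inhibitor of signalling through gp130, was at 8.11, 7.38 and 7.46 CPM untreated and 1565, 1834 and 1969 CPM with LPS (7.87 ± 0.32). Socs1 rose by 5.44 and Cish by 3.42, while Socs6 fell (-1.60). Among RNA decay factors the regnase genes Zc3h12a (4.11) and Zc3h12c (3.10) rose. Zfp36l1 (-1.22) and Zfp36l2 (-1.04), which bind AU-rich elements, fell. In all, 11 of 22 SOCS and RNA decay genes rose and 3 fell, or 7 fell with library totals.

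Of 19 IRF, STAT and JAK genes 14 rose and 5 were not called. With library totals 7 rose and 3 fell. In the 6 lists where edgeR called no fall (NF-kB and IkB, IRF and STAT, chemokines, antiviral genes, class I and proteasome), an unadjusted p under 0.05 gave 1 fall, in the chemokines, and DESeq2 gave 0. Irf1 rose from 105 ± 20.05 to 606 ± 26.9 CPM (2.54 ± 0.15), Stat3 by 2.02 and the kinase gene Jak2 by 3.01. Among 26 AP-1, ATF and CEBP genes 16 rose and 6 fell. Maff (4.37), Fosl2 (3.70), Cebpd (3.70), Batf2 (3.19) and Junb (3.18) rose most, and Fos itself was not called (49.9 and 46.6 CPM, but -0.48 and called with library totals). Cebpa, the factor of myeloid commitment, was at 311, 265 and 291 CPM untreated and 96.7, 95.8 and 125 CPM with LPS (-1.45 ± 0.23). Ets2 rose by 4.40 and Nr4a1 by 2.87 among 31 other inducible factors, of which 22 rose and 3 fell, or 6 fell with library totals.

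The lineage factors of macrophages changed in both directions. Spi1, which encodes PU.1, rose from 585 ± 22.3 to 1732 ± 145 CPM (1.56 ± 0.16), and Ikzf1 by 1.52. Mef2c (-2.70), Pparg (-2.29) and Tfeb (-2.06), the factor of lysosome genes, fell. Of 26 such genes 13 rose and 9 fell. Zinc finger genes of the C2H2 class numbered 404, of which 47 (11.6%) rose and 170 (42.1%) fell, a median of -0.57. That share of falls compares with 27.7% of all tested genes.

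Genes of HDACs and corepressors fell more often than they rose, 13 of 26 against 4. Hdac5 fell from 175 ± 11.2 to 48.5 ± 1.76 CPM (-1.85 ± 0.14). The falls also took in Sirt3 (-1.38), a mitochondrial deacylase, and Tbl1xr1 (-1.16), a subunit of the same corepressor complexes as HDAC3. Hdac1 rose by 1.18 ± 0.09. Ncor1 (107 and 101 CPM untreated and with LPS), a partner of HDAC3 in those complexes, was not called, though with library totals it fell (-0.47). Among 30 acetyltransferases, readers and demethylases 15 rose and 5 fell, with Setdb2 (1.76) and Kat2b (1.40) rising and Kat6b (-1.42) falling. With library totals 6 of these 30 rose and 11 fell.

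Secreted mediators were among the largest rises. Of 19 tested interleukin and colony-stimulating factor genes 18 rose and 1, Il16, fell (-1.31 ± 0.17), with a median of 4.73. Il1b, the inflammasome-processed IL-1, was at 2.28, 0.979 and 4.63 CPM untreated and 2508, 2297 and 2405 CPM with LPS (9.85 ± 0.45). Csf3, which encodes G-CSF, had 1 count in all untreated libraries together and 99.0, 86.3 and 107 CPM with LPS. The ratio of its CPM was 6140, with an exact 95% counting interval from 1102 to 242600. Il12a, the p35 subunit of IL-12, was at 0.486, 0.0890 and 0.0995 CPM untreated and 36.6, 30.3 and 34.6 CPM with LPS (7.21 ± 0.33). Il10, the main inhibitory cytokine of macrophages, was at 3.74, 3.56 and 3.93 CPM untreated and 26.8, 49.5 and 49.0 CPM with LPS (3.48 ± 0.22). Il19, its neighbour on chromosome 1 (130932656 to 130940115), had 0 counts untreated and 114 counts with LPS. Against a floor of 3 counts over the group this is at least 48.2-fold higher, which covers counting error only. At that bound the list median is the same gene, Il1rn. This gene, the antagonist of the IL-1 receptor, rose from 32.0 ± 9.19 to 851 ± 184 CPM (4.73 ± 0.27).

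Ifng, which encodes interferon gamma and is best known from lymphocytes, was at 0.0486, 0.0890 and 0.0995 CPM untreated and 43.0, 46.8 and 52.0 CPM with LPS. Beside it, the summed level of 10 markers of T and NK cells was 19.04 to 23.3 CPM untreated and 33.2 to 50.8 CPM with LPS. Of these 10, Prf1 (2.87), Tbx21 (1.99), Ncr1 (1.57) and Eomes (1.56) rose, Klrb1c fell (-1.58, but -1.09, -1.56 and -1.33 and not called without LPS replicate 1, LPS replicate 3 or untreated replicate 3), none was at 0 in any library, and Cd3e was at 1.56 to 2.69 CPM untreated and 1.44 to 2.82 CPM with LPS. The part of such cells in the rise of Ifng was not tested.

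Of 24 TNF superfamily ligands and receptors 15 rose and 5 fell. Tnf was at 6.90, 5.12 and 5.37 CPM untreated and 807, 620.1 and 697 CPM with LPS (6.93 ± 0.20). Cd40, the receptor for T cell help, rose by 4.40, Tnfsf9 by 4.32 and Tnfsf15 by 3.52. Tnfsf12, which encodes TWEAK (-1.93), and Tnfrsf21 (-1.63) fell.

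Chemokine genes were read by their clusters, since near copies may share reads. Of 26 tested chemokines 18 rose and 8 were not called, with a median of 2.41. With library totals 1 fell. In the neutrophil-attracting cluster on chromosome 5 (90759360 to 90905938), Cxcl1, Cxcl2 and Cxcl3 rose by 8.67 ± 0.47, 7.37 ± 0.32 and 6.97 ± 0.36. Cxcl5 rose by 1.76 ± 0.55, a call that was lost with untreated replicate 2 (1.52) or 3 (1.43) or LPS replicate 3 (1.41) left out, and with library totals (1.38). In the interferon-inducible cluster further along (92321347 to 92365485), Cxcl10 was at 3.30, 5.07 and 7.66 CPM untreated and 804, 719.6 and 1045 CPM with LPS (7.32 ± 0.34). Its neighbours Cxcl11 (4.97 ± 0.42) and Cxcl9 (3.16 ± 0.48) rose less, and the flanking genes Sdad1 (0.73) and Nup54 (0.91) rose on the TMM scale but were not called with library totals (0.34 and 0.52).

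On chromosome 11 the monocyte-attracting genes Ccl12 (4.46), Ccl7 (4.27) and Ccl2 (3.89) rose together, while Ccl8 in the same cluster was not called (67.6 and 74.2 CPM). In the next cluster Ccl3 (4.96), Ccl4 (4.21), Ccl9 (2.34) and Ccl5 (1.34) rose. Ccl5 was at 405, 121 and 392 CPM untreated and 812, 549 and 962 CPM with LPS. Replicate 2 was the lowest of its group in both treatments for Ccl3, Ccl4, Ccl5 and Ccl9.

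The formyl peptide receptors Fpr1 and Fpr2 rose by 5.02 ± 0.16 and 4.24 ± 0.15, to 968 ± 15.2 and 810.0 ± 40.6 CPM, and Ccrl2 rose by 4.14. Cxcr4, which retains cells in marrow, fell from 156 ± 28.3 to 31.8 ± 9.14 CPM (-2.29 ± 0.20), and Cxcr3 fell by 3.69. C5ar1 rose (1.04) and the second C5a receptor gene C5ar2 fell (-2.28). In all, 8 of 19 chemoattractant receptors rose and 6 fell.

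Of 30 G protein-coupled receptors for nucleotides and lipids 13 rose and 10 fell, or 7 fell without untreated replicate 1. Gpr84, a receptor for medium-chain fatty acids, rose from 2.76 to 245 CPM (6.47 ± 0.16) and Hcar2, the niacin receptor, by 6.36. The adenosine receptors Adora2a, at 10.9, 8.85 and 9.50 CPM untreated and 309, 331 and 326 CPM with LPS, and Adora2b (4.16) rose. The lysophosphatidic acid receptor genes Lpar5 and Lpar6 fell, Lpar5 from 23.6 to 0.649 CPM (-5.18 ± 0.26) and Lpar6 by 2.35. P2ry12, an ADP receptor, fell by 2.18.

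The fungal and mycobacterial lectin genes Clec4e and Clec4d, neighbours on chromosome 6, rose by 4.38 and 1.84, and the scavenger receptors Msr1 (2.04) and Marco (1.53) rose. Havcr2, which encodes TIM-3, fell by 3.39, the lectin gene Clec10a by 2.88, Mrc1, the mannose receptor, by 1.65, and Gas6, the ligand of TAM receptors, by 2.60. Of 27 such genes 10 rose and 7 fell, or 13 fell with library totals. Within the Clec4 cluster Clec4a1, Clec4a2 and Clec4n rose by 0.84, 0.68 and 1.52, and Clec4a3 fell by 0.80. With library totals Clec4a2 was not called (0.29).

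Immune receptors with activating or inhibitory tails followed no single direction. Trem1 was at 0.291, 0.356 and 0.199 CPM untreated and 18.7, 22.5 and 21.4 CPM with LPS (6.16 ± 0.26), and the inhibitory Siglece rose by 4.08. Cd300a, an inhibitory receptor, was at 296, 230.0 and 299.9 CPM untreated and 13.1, 15.5 and 19.2 CPM with LPS (-4.11 ± 0.16). Cd300lb (-2.79) and Cd200r1 (-1.81) fell as well, while Cd300e rose (3.93). In all, 16 of 29 rose and 7 fell, or 13 rose without untreated replicate 1. Of 21 costimulatory and checkpoint genes 14 rose and 1, Vsir, the gene of VISTA, fell (-2.01 ± 0.13). Cd274, which encodes PD-L1, rose from 278 ± 26.4 to 1397 ± 97.1 CPM (2.33 ± 0.16).

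Adhesion genes were led by Itgb8 (7.11 ± 0.59, from 4 counts in all untreated libraries to 485 with LPS) and Icam1 (4.73 ± 0.15). Itga5, the fibronectin receptor chain, rose by 2.93 and Itgax, which encodes CD11c, by 2.31. Itgb5 fell from 274 ± 10.2 to 44.8 ± 1.33 CPM (-2.61 ± 0.11). Of 28 such genes 14 rose and 3 fell, or 7 fell with library totals. Among 37 regulators of small GTPases and actin 20 rose and 9 fell. Marcksl1 rose from 95.8 ± 22.1 to 3631 ± 298 CPM (5.24 ± 0.21), a gain of 3536 CPM. Arhgap19, a GTPase-activating protein, was at 273, 306 and 314 CPM untreated and 5.61, 4.33 and 4.77 CPM with LPS (-5.92 ± 0.14), and Rgs2 fell by 3.49.

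**Figure D2:**
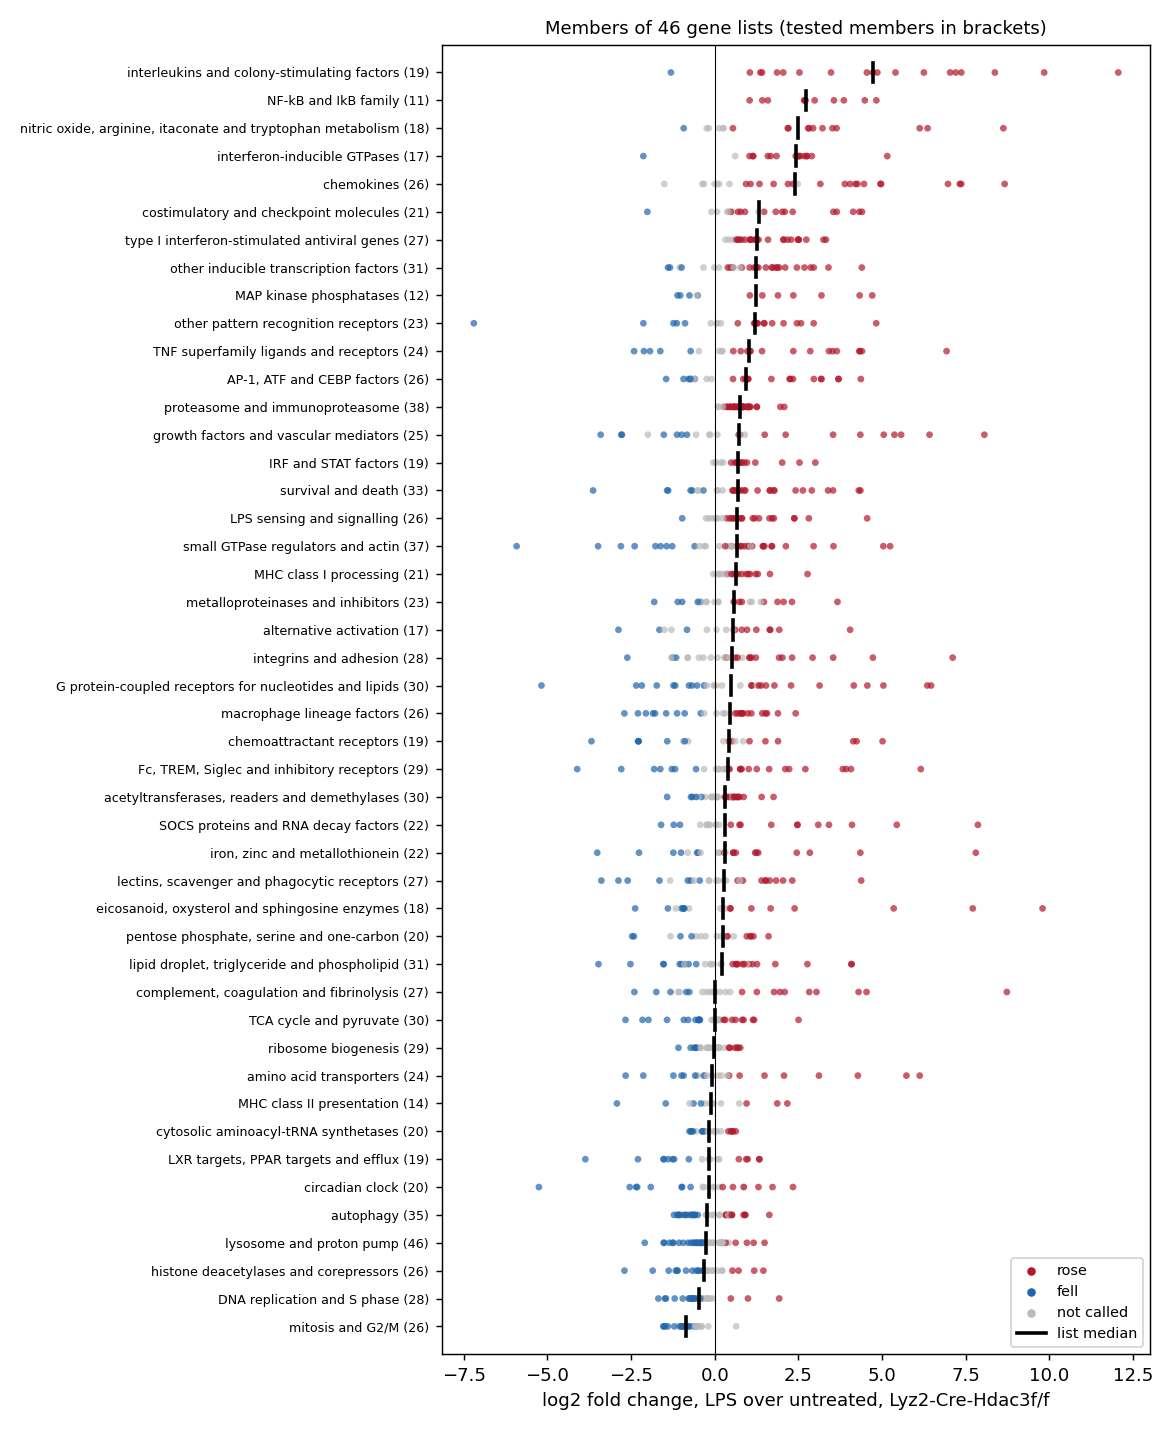
Each row is 1 of 46 gene lists, with its tested members as points at their log2 fold change (LPS over untreated, Lyz2-Cre cells), coloured by call, and the list median as a black bar. Medians run from 4.73 for interleukins and colony-stimulating factors to -0.85 for mitosis genes.

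Genes of the interferon arm rose in number, with smaller medians than the cytokine list. Of 27 type I interferon-stimulated antiviral genes 24 rose and 3 were not called, with a median of 1.25. Cmpk2 (3.33), Isg15 (3.25), Rsad2 (2.74), Ifit1 (2.52) and Usp18 (2.51) led, and Ifnb1 itself was at 0.534 and 0.784 CPM and was not called. Of 17 interferon-inducible GTPases 15 rose and 1 fell, with a median of 2.42, and 2 fell without untreated replicate 1. Gbp5, which takes part in inflammasome assembly, was at 14.96, 20.1 and 26.8 CPM untreated and 760, 712 and 739 CPM with LPS (5.16 ± 0.31). Gbp8 fell (-2.13 ± 0.21), but its interval on chromosome 5 (105014150 to 105139540) overlaps those of Gbp9 and Gbp4, which rose by 1.15 and 2.51, so its reads may be shared.

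For antigen presentation the 2 classes are given apart. Of 21 class I genes 14 rose and 7 were not called, with a median of 0.65, among them the transactivator Nlrc5 (1.65), the peptide transporter Tap2 (1.29) and Tapbp (1.23). Of 14 class II genes 3 rose and 4 fell, near the 25.2% and 27.7% of all tested genes. Only 2 of the 14 fell without LPS replicate 1, and 7 fell with library totals. Ciita, the class II transactivator, was at 57.9, 66.4 and 65.1 CPM untreated and 10.9, 5.84 and 8.28 CPM with LPS (-2.92 ± 0.23, adjusted p = 3.17e-07). The peptide exchange gene H2-DMa fell (-1.46), and March1, a ligase that removes class II from the surface, rose (2.17). H2-Oa (0.95) and H2-Ob (1.87), whose products restrain H2-DM, rose. The class II chain genes H2-Aa (502 and 408 CPM) and H2-Ab1 (989 and 885 CPM) were not called, except H2-Aa with library totals (-0.68).

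Most proteasome genes rose. Of 38 tested 35 rose and 3 were not called, with a median of 0.75, and with library totals 2 fell. Psme2, a subunit of the interferon-inducible cap, rose by 2.08 and the alpha subunit gene Psma6 from 116 ± 5.29 to 453 ± 13.2 CPM (1.96 ± 0.10). Of 46 lysosome and proton pump genes, 21 fell, 6 rose and 19 were not called, with a median of -0.26, or 17 fell without untreated replicate 1. Manba (-2.09), Lipa, the acid lipase (-1.53), and Naglu (-1.51) fell, while the protease gene Ctsc (1.49) and the proton pump subunit Atp6v1e1 (1.17) rose. With library totals 34 fell. Of 35 autophagy genes 15 fell and 11 rose, but 7 rose without untreated replicate 2 and 3 with library totals. Sqstm1, the p62 cargo receptor, rose from 1074 to 3330 CPM (1.63 ± 0.17), and Calcoco1 (-1.22) and Nbr1 (-1.10), also cargo receptors, fell.

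Survival and death genes, counted as 1 list, rose more often than they fell, 22 of 33 against 6. That count mixes genes for and against cell death. Bcl2a1a (4.36) and Bcl2a1d (3.54), near copies of an anti-apoptotic gene whose reads may be split, rose, as did Traf1 (4.31) and Birc3 (2.90). Casp4, which encodes caspase-11, the cytosolic LPS sensor, rose by 3.39. Both directions of the BCL2 family were seen among the falls: the pro-apoptotic Bmf fell from 26.4 ± 1.94 to 2.12 ± 0.456 CPM (-3.64 ± 0.21) and Bcl2l11 by 1.42, but Bcl2 itself also fell, by 1.39.

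Arginine and itaconate metabolism gave some of the largest rises outside the cytokines. Nos2, a nitric oxide synthase gene, rose from 4.78 ± 1.26 to 1899 ± 409 CPM (8.63 ± 0.42). Acod1, which makes itaconate, was at 37.9, 38.0 and 43.3 CPM untreated and 3495, 2808 and 3519 CPM with LPS (6.37 ± 0.20). Slc7a2, the arginine importer, rose from 6.52 to 458 CPM (6.13 ± 0.28), and Gch1, which starts synthesis of the cofactor of nitric oxide synthase, by 3.52. Cd38, a consumer of NAD, rose by 3.64, and Sat1, a polyamine acetyltransferase, fell by 0.93. Of 18 such genes 12 rose and 1 fell, or 2 fell with library totals.

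Among eicosanoid enzymes Pla2g4a, which frees arachidonate, rose by 2.39, and Ptges, the terminal synthase, was at 8.55, 8.01 and 8.76 CPM untreated and 1748, 1696 and 1874 CPM with LPS (7.71 ± 0.16). Ptgs1, the constitutive cyclooxygenase, fell from 46.2 ± 5.50 to 8.87 ± 1.38 CPM (-2.38 ± 0.24). Lta4h, of leukotriene B4 synthesis, fell by 1.40 and Hpgds, of prostaglandin D2 synthesis, by 0.99. Ch25h, which makes 25-hydroxycholesterol, rose by 5.35. Over the whole list of 18, 8 rose and 6 fell, but 5 rose with library totals, without LPS replicate 3 or without untreated replicate 3.

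Of 30 TCA cycle and pyruvate genes 9 rose and 12 fell, against 25.2% and 27.7% of all tested genes, with a median of 0.02. With library totals 4 rose. Idh1 was at 198, 173 and 185 CPM untreated and 45.5, 38.5 and 40.4 CPM with LPS (-2.16 ± 0.11), and Idh2 fell by 1.98. Pdk1 (1.18) rose and Pdk2 (-2.67) fell, both kinases that shut pyruvate dehydrogenase. Of other NADPH-making enzymes Pgd rose by 1.61, G6pdx by 1.08 and Me1 by 2.51. Shpk, a kinase that draws sedoheptulose into the pentose pathway, fell by 2.42. In lipid storage and remodelling Dgat2 (4.09), Acsl1 (4.08) and Agpat4 (2.77) rose, and Lpin1 (-3.47) and the desaturase Fads1 (-2.52) fell. Of 31 such genes 13 rose and 9 fell, or 8 rose with library totals.

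Iron genes included falls and rises. Slc40a1, ferroportin, the iron exporter, was at 142, 141 and 144 CPM untreated and 34.4, 31.6 and 23.1 CPM with LPS (-2.26 ± 0.18). The importers Slc39a14 (2.84) and Slc11a2 (1.25) and the siderophore binder Lcn2 (4.35) rose, as did Hmox1 (1.30), while Steap3 fell (-3.51). Among amino acid transporters 8 of 24 rose and 7 fell, or 12 fell with library totals. On the TMM scale this was near the 25.2% and 27.7% of all tested genes, with a median of -0.07 against -0.08. The cystine importer Slc7a11 (4.28) and the glutamate transporter Slc1a2 (5.73) rose, and Slc43a2, a methionine and leucine transporter, fell from 811 ± 35.5 to 185 ± 36.9 CPM (-2.13 ± 0.14). For tRNA synthetases (5 rose and 7 fell of 20) and ribosome biogenesis (6 rose and 5 fell of 29) the balance depended on the scale, since with library totals none rose and 11 and 12 fell. Without LPS replicate 1, 4 tRNA synthetase genes fell, and with the 6 Lyz2-Cre libraries fitted alone 8 ribosome biogenesis genes fell.

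In coagulation, Procr, the receptor of protein C, rose by 4.30 and Plaur, the urokinase receptor, by 3.04, while urokinase itself, Plau (-1.75), and thrombomodulin, Thbd (-2.40), fell. Mmp13 (3.67), Mmp14 (2.06) and Mmp9 (1.88) rose and the inhibitor gene Timp2 fell (-1.81). Vegfc rose by 5.37 and Inhba by 5.57, and Vegfb fell by 1.52. Edn1, endothelin 1, was at 0.146, 4.89 and 2.79 CPM untreated, lowest in replicate 1, and 80.6, 96.1 and 86.8 CPM with LPS (5.05 ± 0.67).

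The PAR bZIP genes Dbp and Tef, which carry output of the circadian clock, fell by 5.26 ± 0.22 and 2.54, and Per3 by 2.32. Nfil3, which competes for the same sites, rose by 2.34. Of 20 clock genes 6 rose and 8 fell, against 25.2% and 27.7% of all tested genes, and 3 rose with library totals. Of 26 mitosis genes 17 fell and 9 were not called, and 1 rose by edgeR at an unadjusted p under 0.05 and by DESeq2. Of 28 S phase genes 15 fell and 3 rose, but 8 fell without LPS replicate 2, 9 without untreated replicate 3, 12 without untreated replicate 1 and 25 with library totals. Ccne1 (1.93) rose and Dnmt1 (-1.49) fell. Bub1b, of the spindle checkpoint, fell and was at 11.2 CPM untreated and 3.92 CPM with LPS.

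Further large falls lay outside the 46 lists. Zdhhc14, a palmitoyl transferase gene, was at 108, 89.1 and 92.3 CPM untreated and 1.39, 2.48 and 1.76 CPM with LPS (-5.67 ± 0.19). Slc46a3, a lysosomal transporter, was at 60.3, 62.9 and 62.1 CPM untreated and 1.93, 2.31 and 1.88 CPM with LPS (-4.91 ± 0.12), and Sgsh, a lysosomal sulfatase, fell from 149 ± 8.91 to 5.90 ± 0.175 CPM (-4.66 ± 0.12). Rnf150 (-5.04), Inpp5j, a phosphoinositide phosphatase (-4.33), and Rab3il1 (-4.41) fell also.

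Per unit of gene length, the most abundant transcripts with LPS were those of the iron store Fth1, at 26980 CPM per kilobase against 17440 untreated, and Apoe, at 12970 against 14650. Saa3, an acute phase protein of macrophages, was at 3766 CPM per kilobase with LPS and 866 untreated. The largest gain in CPM was that of Fth1 (8260, log2 fold change 0.63 ± 0.16), followed by Saa3 (7558) and Cd14 (4524). The largest loss was that of Psap, the precursor of saposins, which fell by 5324 CPM (-0.64 ± 0.15). Under library totals the log2 fold change of Psap was -1.03 and that of Fth1 was 0.24 (adjusted p = 0.0641).

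**Figure D3:**
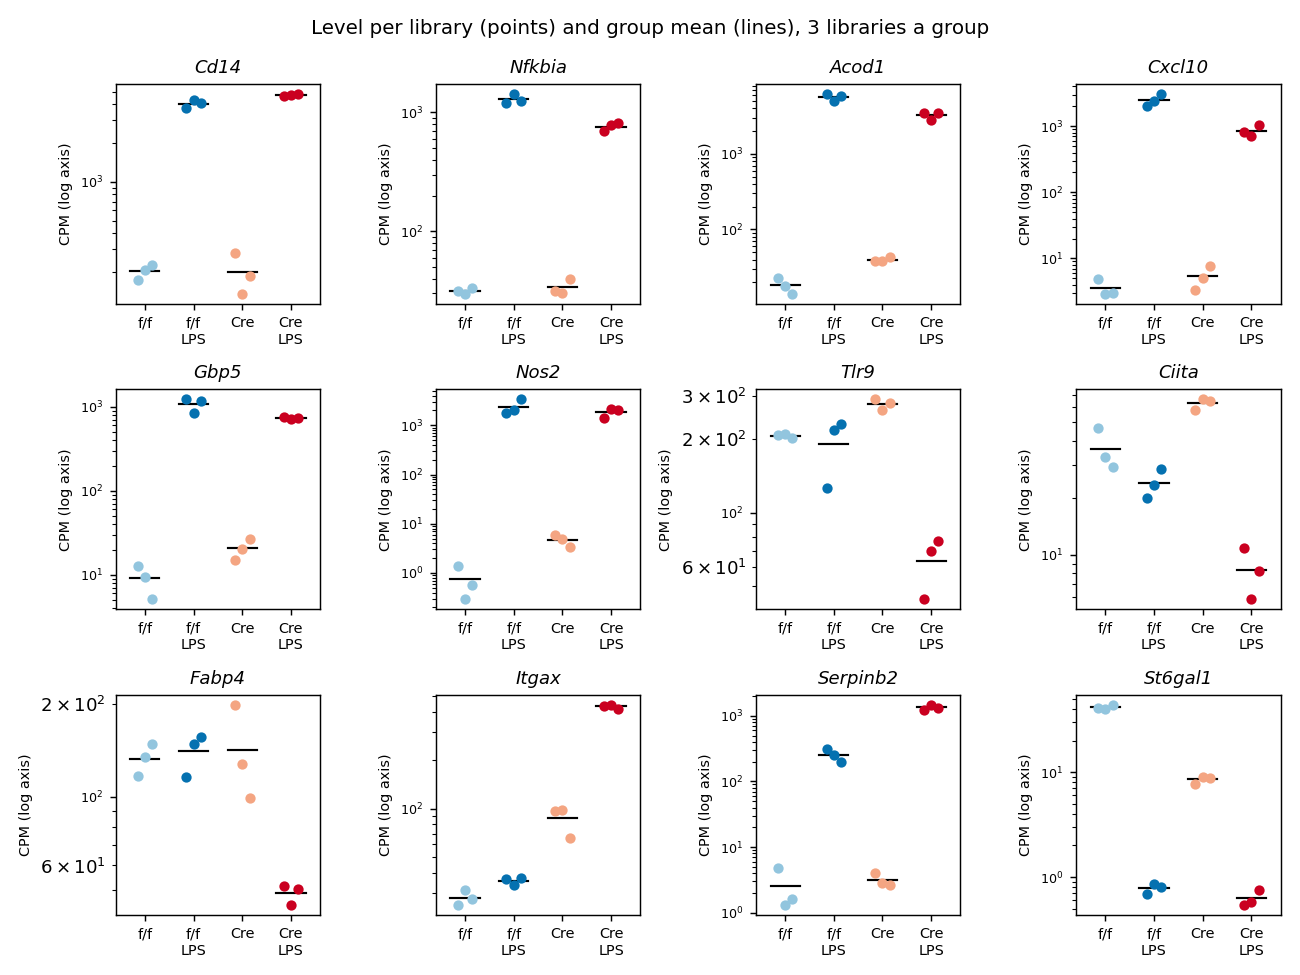
Points are the CPM of single libraries (log axis) and lines the mean of 3 libraries for Hdac3f/f cells (f/f) and Lyz2-Cre-Hdac3f/f cells (Cre), untreated and with LPS, for 12 genes. Cd14 lay between 3713 and 4835 CPM with LPS in all 6 libraries of both genotypes, while Ciita fell further in Lyz2-Cre cells, Tlr9 and Fabp4 were called falls there and not in Hdac3f/f cells, and Itgax and Serpinb2 rose further there.

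The response of Lyz2-Cre cells was then set against that of Hdac3f/f cells by the interaction term of the same model, which is the response in Lyz2-Cre minus that in Hdac3f/f cells. It was called more positive in 2.58% (369) and more negative in 5.54% (791) of the tested genes. With library totals as the scale the balance turned, with 1134 more positive and 448 more negative. The counts and lists below are on the TMM scale. Of the 791, 503 rose in both genotypes and rose less in Lyz2-Cre cells, and 139 rose only by call in Hdac3f/f cells. A further 36 fell in Lyz2-Cre and rose in Hdac3f/f cells, 64 were called falls in Lyz2-Cre cells only and 49 fell in both. Of the 369, 149 fell in both and 120 were called falls in Hdac3f/f cells only. These counts depended on single libraries. Without 1 library in turn, the more positive count ran from 108 to 957 and the more negative from 405 to 1038.

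Interferon-linked lists were read first. The interaction was negative and called for 17 of 27 antiviral genes, 7 of 17 interferon-inducible GTPases, 14 of 21 class I genes and 9 of 19 IRF and STAT genes, against 5.54% of all tested genes. Rsad2 reached 3026 ± 446 CPM with LPS in Hdac3f/f and 1263 ± 247 CPM in Lyz2-Cre cells, from 86.0 ± 25.3 and 189 ± 10.2 CPM untreated, an interaction of -2.40 ± 0.28 (adjusted p = 0.000568). Lyz2-Cre cells had both the higher start and the lower end. Cxcl10 ended at 2499 ± 559 and 856 ± 169 CPM (-2.09 ± 0.40). In the arginine and itaconate list 10 of 18 genes had a called negative interaction. Acod1 started at 18.2 ± 4.27 and 39.7 ± 3.13 CPM and ended at 5658 ± 656 and 3274 ± 404 CPM (-1.91 ± 0.23).

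Some genes fell in Lyz2-Cre cells alone by call, and the difference itself was called. Tlr9 was at 206 ± 4.50 and 192 ± 56.9 CPM in untreated and treated Hdac3f/f cells, and at 279 ± 14.3 and 63.7 ± 17.1 CPM in Lyz2-Cre cells (interaction -2.03 ± 0.31, adjusted p = 0.0024). Fabp4, a fatty acid carrier, was at 133 ± 15.6 and 140.2 ± 21.0 CPM in Hdac3f/f cells and at 199, 127 and 99.2 CPM untreated and 51.4, 44.8 and 50.6 CPM treated in Lyz2-Cre cells (-1.61 ± 0.29). The zinc exporter gene Slc30a1 was at 76.4 ± 7.59 and 68.9 ± 14.4 CPM against 87.3 ± 4.45 and 37.0 ± 3.32 CPM (-1.09 ± 0.20). Ciita fell in Lyz2-Cre cells to 8.33 ± 2.51 CPM and in Hdac3f/f cells to 23.9 ± 4.14 CPM (-2.32 ± 0.31). Apoe ended at 37840 ± 6771 CPM in Hdac3f/f cells, up from 21570 ± 2134, and at 27740 ± 604 CPM in Lyz2-Cre cells, where its response was not called (interaction -0.99 ± 0.21, and -0.91 and not called without Hdac3f/f untreated replicate 2). With library totals the Apoe response in Lyz2-Cre cells was called, at -0.56.

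**Figure D4:**
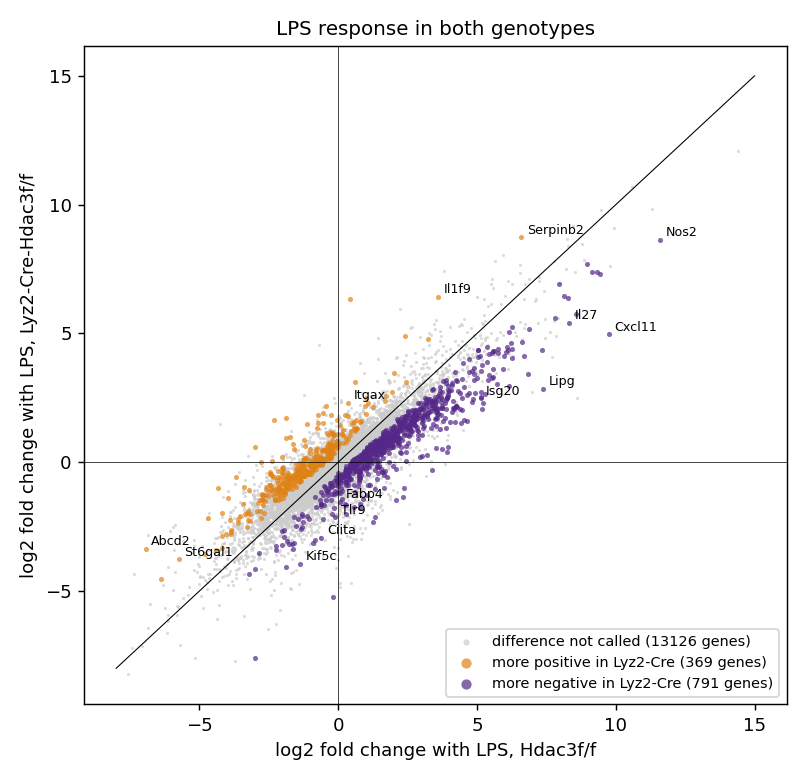
Each point is 1 tested gene, with its log2 fold change with LPS in Hdac3f/f cells on the x axis and in Lyz2-Cre cells on the y axis, and the diagonal marks equal responses. Purple points (791) had a more negative and orange points (369) a more positive response in Lyz2-Cre cells, and many purple points lie to the upper right, where genes rose in both.

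Of the 369, 30 rose in both genotypes, 50 were called rises in Lyz2-Cre cells only and 20 rose there and fell in Hdac3f/f cells. Itgax was at 97.4, 98.1 and 65.9 CPM untreated and 438, 444 and 418 CPM with LPS, where Hdac3f/f cells had 27.9 ± 3.02 and 35.7 ± 2.02 CPM (interaction 1.96 ± 0.20, adjusted p = 0.000347). Its neighbour on chromosome 7, Itgad (128154376 to 128223816), which encodes CD11d, rose to 17.5 ± 4.76 CPM against 2.93 ± 0.68 CPM (2.64 ± 0.33). Serpinb2, whose window above held an AP-1 match and a TATA box, reached 1236, 1486 and 1338 CPM against 308, 252 and 197 CPM (2.14 ± 0.49). The interaction of Serpinb2 was not called without Lyz2-Cre untreated replicate 2 (2.06) or 3 (2.03). Its 3' end overlaps the start of Serpinb10, so the 2 genes may share reads. In S phase genes the interaction was positive and called for 11 of 28, against 2.58% of all tested genes. As a list these genes fell in both genotypes and fell less in Lyz2-Cre cells. The median was -1.28 in Hdac3f/f cells, where 22 fell, and -0.48 in Lyz2-Cre cells, where 15 fell. Among genes that fell in both genotypes, St6gal1, a sialyltransferase, started at 41.8 ± 2.16 CPM in Hdac3f/f and 8.56 ± 0.68 CPM in Lyz2-Cre cells and ended at 0.783 ± 0.08 and 0.625 ± 0.11 CPM (1.96 ± 0.26). The lower start in Lyz2-Cre cells stands beside that smaller fall. Cebpa went from 639 ± 68.7 to 91.1 ± 36.0 CPM in Hdac3f/f cells and from 289 ± 22.6 to 106 ± 16.3 CPM in Lyz2-Cre cells (1.36 ± 0.32). The Cebpa interaction was not called without Lyz2-Cre untreated replicate 2 (1.30) or 3 (1.36), Hdac3f/f LPS replicate 3 (1.37) or Hdac3f/f untreated replicate 2 (1.31).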

How the data were processed

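Gene counts per library, deposited by the authors, were used as whole-number read counts that are not normalized. Per the submitters' processing notes, TopHat2 and mm10 were used, and the counting tool and strand setting are not given in the sources used here. Genes passing filterByExpr (14286 of 54532) were fitted in edgeR 4.0.16 (R 4.3.3, limma 3.58.1) over all 12 libraries, 3 in each of 4 groups, with TMM scaling and the quasi-likelihood test. Adjusted p-values are Benjamini-Hochberg over all tested genes at 0.05, and an SE is the log2 fold change divided by the root of F. The script was tested on simulated data. DESeq2 1.42.0, DESeq2 size factors, library totals, no filter, a replicate block, the 6 Lyz2-Cre libraries alone and leaving out each library were tried.

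The members and gene lists were chosen with earlier results of these data known. The text names Hdac3 and Lyz2 and the largest changes with at least 5 CPM. From each of 46 lists it names up to 5 rising and 3 falling members. The 10 largest interactions each way are named under the same limits. They had to be called in both tests, with groups not overlapping, and genes annotated as pseudogenes or predicted were left out. Abundant genes and members of small families and clusters are named too, though not every member. Other genes were added after their values were seen. List counts are descriptions, with no set test. Reads of near copies and overlapping genes may be shared. Counting intervals (95%) and floors (3 counts) cover counting error only. Promoter windows come from RefSeq (GRCm38.p6). Figures used matplotlib 3.10.9.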

Additional observations from a re-analysis of the deposited data

Results flagged for a closer look

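The LPS response differed between the genotypes by the interaction test in 369 genes with a more positive and 791 with a more negative response in Lyz2-Cre cells, or 1134 and 448 with library totals as the scale. The values below are interaction log2 estimates, the response in Lyz2-Cre cells minus that in Hdac3f/f cells. The cause of these differences was not tested.

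The 10 genes named each way had non-overlapping Lyz2-Cre groups, at least 5 CPM in the higher of them and no annotation as a pseudogene or predicted gene. Among the positive ones, Itgad (2.64), Itgax (1.96), Gpr183 (2.27) and Dock5 (1.82) rose in Lyz2-Cre cells, though the Dock5 rise was not called with library totals (0.25). Gpr183, an oxysterol receptor, went from 2.23 to 6.46 CPM in Lyz2-Cre cells and from 7.73 to 4.64 CPM in Hdac3f/f cells. Serpinb2 (2.14) and Il1f9 (2.83) rose in both. Abcd2 (3.57), Nlrp1b (2.51), St6gal1 (1.96) and Nat8l (1.86) fell in both genotypes and fell less on the log2 scale in Lyz2-Cre cells. Some ended at very low levels. Abcd2 ended at 0.0474 CPM in Hdac3f/f and 0.558 CPM in Lyz2-Cre cells, Nat8l at 0.343 and 0.549 CPM, and St6gal1 at 0.783 and 0.625 CPM. The size of such an interaction rests on few counts, above all for Abcd2. Several of these interactions were lost with single libraries left out. Il1f9 was not called without Lyz2-Cre untreated replicate 1 (2.84) or 3 (2.55) or Hdac3f/f untreated replicate 3 (2.58). Abcd2 was not called without Lyz2-Cre LPS replicate 1 (3.18) or 2 (3.55) or Hdac3f/f LPS replicate 2 (3.11) or 3 (3.95), and Nlrp1b not without those 4 (2.53, 2.03, 2.32 and 2.42) or Hdac3f/f untreated replicate 2 (2.41). Nat8l was not called with the replicate block (1.84), without any one Lyz2-Cre untreated library (1.83, 1.96 and 1.81), or without Lyz2-Cre LPS replicate 1 (2.04) or 3 (1.39), Hdac3f/f LPS replicate 3 (1.53) or Hdac3f/f untreated replicate 2 (1.88) or 3 (1.74).

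Of the 10 negative ones, 9 rose in both genotypes. Cxcl11, a chemokine gene that the file annotates as a polymorphic pseudogene and so not among the 10, had a more negative value than any of them (-4.79), with 19.7 CPM with LPS in Lyz2-Cre and 88.5 CPM in Hdac3f/f cells. Lipg, the endothelial lipase, had the most negative value of the 10 (-4.53), with 18.4 CPM with LPS in Lyz2-Cre and 232 CPM in Hdac3f/f cells. Il27 (-2.92) reached 86.1 and 296 CPM, and Isg20 (-2.64), an exonuclease, 169 and 632 CPM. Mmp25 (-2.90) and Serpina3g (-2.69) also ended lower in Lyz2-Cre cells. Nos2 (-2.96) started at 4.78 CPM in Lyz2-Cre and 0.748 CPM in Hdac3f/f cells and ended at 1899 ± 409 and 2394 ± 877 CPM. Il23r (-3.42), Lta (-3.00) and Mir155hg (-2.82) also started higher in Lyz2-Cre cells, at 1.31, 0.539 and 0.350 CPM against 0.0775, 0.0784 and 0.0614 CPM. The Mir155hg interaction was not called with library totals (-2.60), nor in 10 of the 12 fits that left out 1 library (-2.32 to -3.20), the exceptions being Hdac3f/f LPS replicates 1 and 2. Kif5c (-2.59) fell in both and fell further in Lyz2-Cre cells.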

How the results depend on the processing

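With library totals as the scale, 2109 genes rose and 6463 fell, 1140 and 3583 of them over 2-fold, and the interaction was more positive in 1134 and more negative in 448 genes. DESeq2 gave 569 more positive interactions. Leaving out each of the 6 Lyz2-Cre libraries in turn gave 3203 to 3425 rises and 3324 to 3618 falls, 1707 to 1779 and 2034 to 2238 over 2-fold. Leaving out each of all 12 libraries gave 108 to 957 more positive and 405 to 1038 more negative interactions. Without Hdac3f/f LPS replicate 1 the more positive count was 957, and without Hdac3f/f untreated replicate 2 it was 108. Whether the replicate numbers pair the libraries was not settled by the correlations of their deviations. Same-numbered deviations correlated at 0.134, 0.069 and 0.011 in Lyz2-Cre cells, where those of unlike number ran from -0.118 to 0.09. In Hdac3f/f cells the same-numbered values were 0.197, 0.096 and 0.003, and the others ran from -0.357 to 0.364. With a replicate block, 3653 genes rose, 4034 fell, 1715 and 2211 over 2-fold, and 392 and 804 interactions were called. Signs changed, in genes not called with all libraries, for Hdac3 (-0.30), Csf1r (-0.33) and Ccl8 (-0.25) with library totals and Cd3e with DESeq2 or its size factors (0.01). Leaving out 1 library moved Ccl8 between -0.04 and 0.34, Cd3e between -0.25 and 0.21, Fos between -0.28 and 0.12, H2-Ab1 between -0.32 and 0.14 and Ncor1 between -0.16 and 0.04. Of 1104 alternatives of 92 list counts, 1045 stayed within 1.5 times. The cause of these shifts was not tested. At these depths a gene with 0 counts in a group is bounded only by the floor of 3 counts.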
